A study of Mus musculus with 27 samples.

Results

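The 24 h response of the mouse skullcap to cranial UVB was set against the 24 h response of the brain beneath it, gene by gene. In the study, ultraviolet B light of 311 nm at 2 mW was shone on the interparietal bone, the plate of the skullcap at its back, and messenger RNA was sequenced from skull, meninges and brain after 0.5 h or 24 h and from untreated mice. The comparison used 12 of the 27 libraries: skull without UVB, skull 24 h after UVB, brain without UVB and brain 24 h after UVB, with 3 libraries in each group. The labels name no strain, age, sex or hour of collection, and they do not describe the untreated mice as sham-treated. The labels do not say whether the 3 libraries of a group came from 3 mice, so the p-values reflect the spread among these libraries only, which may be technical. For each gene the log2 fold change, 24 h against control, was estimated in each tissue, and the quantity tested was the skull value minus the brain value, called the difference below. Only genes whose difference passed an adjusted p under 0.05 (Benjamini-Hochberg over all genes tested) are described as called.

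Total counts per library ran from 14208961 to 27305294, and brain control 1 was the deepest. The tissues matched their names: the osteoblast list (Col1a1, Ibsp and others) summed to between 99600 and 154000 CPM (counts scaled to a common library total) in skull, and the neuron list to between 13200 and 14800 CPM in brain. The skull libraries held marrow as well, with 6910 to 13500 CPM of neutrophil genes, and 1270 to 5130 CPM of skeletal muscle genes. Brain control 1 stood apart from the other brain libraries in Cd74 (25.1 CPM against 1.48 to 2.42 in the other 5) and in Krt14 (4.87 CPM, with 0 in the other 5). Leaving out any one of the 12 libraries ended between 12 and 22 of the 112 calls on genes named by the naming rule, 19 of them without brain control 1. The skull sample is a mixture of bone, marrow and adherent tissue, so fewer cells of a type and less RNA per cell cannot be told apart.

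Several of the gene groups described here answer to systemic or daily signals. In the circadian clock, the activators BMAL1 (encoded by Arntl), CLOCK and NPAS2 bind E-box sequences and switch on the period, cryptochrome and REV-ERB genes and the output factors DBP, TEF and HLF, which bind D-boxes, while REV-ERB and ROR proteins compete at ROR elements in genes such as Arntl and Nfil3. Cholesterol synthesis genes are switched on together by the transcription factor SREBP2 when membrane sterol is low. Glucocorticoid hormone, which itself follows the day and stress, switches on genes such as Klf9, Per1 and Sesn1 in many tissues.

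Of 19873 genes tested, 1060 (5.33%) were called, 574 (2.89%) with a higher and 486 (2.45%) with a lower 24 h effect in skull than in brain. More of the called genes had moved in skull than in brain. In the same fit 3461 genes (17.4%) passed for the skull effect on its own, 1698 higher (8.54%) and 1763 lower (8.87%). The brain effect passed for 121 (0.609%), 32 higher (0.161%) and 89 lower (0.448%). The CPM of the 24 h and control libraries did not overlap for 34.2% of the genes in skull and 21.5% in brain. Among the 13618 genes with a mean of at least 1 CPM in both tissues, 966 (7.09%) were called, and the estimate was further from 0 in skull for 850 of them and further from 0 in brain for 116. Their median absolute log2 fold change was 0.676 in skull and 0.157 in brain. A fall or a rise that passed only in skull accounted for 393 and 453 of the 966. Another 84 (61 higher and 23 lower) passed in neither tissue on its own, and 24 passed in brain only (17 lower and 7 higher there). In 8 genes both tissues passed with opposite signs, and in 4 both passed with the same sign and unequal size.

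**Figure D1:**
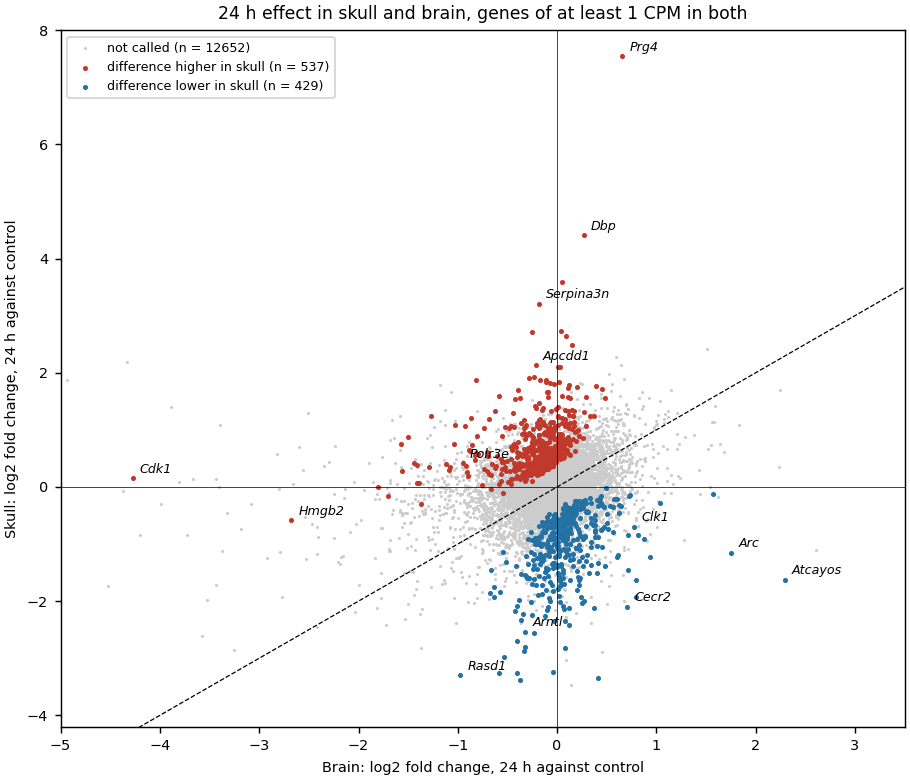
Log2 fold change at 24 h in brain (x axis) and skull (y axis) for genes with at least 1 CPM in both tissues. Each point is a gene, the dashed line marks equal effects, and red and blue points are the 537 and 429 genes with a called difference. Prg4 and Dbp stand at the top and Rasd1 near the bottom, while Cdk1, Hmgb2, Arc and Clk1 are displaced along the brain axis.

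The clock gave the most densely called lists. Promoter windows from RefSeq (GRCm38.p6, from 250 bases before to 50 bases after a transcript's start) were searched on both strands for the E-box CACGTG, the D-box TTATGTAA and the ROR element TAGGTCA. The shares of 32851 such windows that hold them are 7.15%, 0.938% and 2.61%. Of the 15 called clock genes, 14 had a window: the E-box was found in 4 (Bhlhe41, Ciart, Per1 and Tef), the D-box in 1 (Per3) and the ROR element in 2 (Arntl and Nfil3). A gene can have several windows and was counted if any of them held the motif. The counts of genes are therefore not the same measure as the shares of windows. The 5 windows shown hold the E-box in a gene that rose and a gene that fell in skull, the D-box in a gene that rose and the ROR element in genes that fell. Capitals mark the motif. A match is a description of the letters and not a measured binding site.
Ciart (rose; chr3:95882179-95882478 on the minus strand): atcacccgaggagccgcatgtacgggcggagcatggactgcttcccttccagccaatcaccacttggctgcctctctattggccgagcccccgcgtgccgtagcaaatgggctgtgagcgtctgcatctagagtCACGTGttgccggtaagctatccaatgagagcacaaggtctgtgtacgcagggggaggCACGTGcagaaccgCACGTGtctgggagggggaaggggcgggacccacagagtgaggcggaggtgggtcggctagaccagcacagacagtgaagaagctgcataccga
Per3 (rose; chr4:151044616-151044915 on the minus strand): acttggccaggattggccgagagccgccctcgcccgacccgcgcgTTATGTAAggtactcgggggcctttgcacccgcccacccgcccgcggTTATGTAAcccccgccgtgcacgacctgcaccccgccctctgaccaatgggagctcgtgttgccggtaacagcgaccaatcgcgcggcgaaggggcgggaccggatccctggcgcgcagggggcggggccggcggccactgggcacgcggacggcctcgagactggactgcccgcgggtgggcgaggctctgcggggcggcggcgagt
Per1 (fell; chr11:69098699-69098998 on the plus strand): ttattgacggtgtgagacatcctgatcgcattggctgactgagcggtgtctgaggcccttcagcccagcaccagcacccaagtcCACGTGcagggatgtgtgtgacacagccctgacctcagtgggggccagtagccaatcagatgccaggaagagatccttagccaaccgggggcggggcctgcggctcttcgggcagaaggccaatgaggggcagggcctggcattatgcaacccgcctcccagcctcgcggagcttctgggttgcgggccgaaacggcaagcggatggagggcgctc
Arntl (fell; chr7:113207261-113207560 on the plus strand): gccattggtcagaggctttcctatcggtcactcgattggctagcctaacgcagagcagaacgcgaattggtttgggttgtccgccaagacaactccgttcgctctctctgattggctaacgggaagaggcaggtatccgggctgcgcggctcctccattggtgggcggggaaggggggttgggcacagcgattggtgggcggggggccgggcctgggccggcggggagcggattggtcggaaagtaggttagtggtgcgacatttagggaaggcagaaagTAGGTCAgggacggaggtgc
Nfil3 (fell; chr13:52980990-52981289 on the minus strand; the capitals are the ROR element read on the other strand): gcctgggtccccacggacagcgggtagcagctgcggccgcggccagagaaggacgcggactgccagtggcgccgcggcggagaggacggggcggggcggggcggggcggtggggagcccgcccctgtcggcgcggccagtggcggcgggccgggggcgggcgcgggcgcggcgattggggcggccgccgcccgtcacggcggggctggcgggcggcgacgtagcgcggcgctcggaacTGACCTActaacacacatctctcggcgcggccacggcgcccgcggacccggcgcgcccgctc
Ciart holds 3 E-boxes and rose, whereas Per1 holds 1 and fell. Bhlhe41, with 1, and Tef, with 1 in each of 2 windows, also rose and are not shown. Both windows with a ROR element belong to genes that fell.

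In the skull the clock genes had moved apart by 24 h, with activators lower and most D-box factors and repressors higher, while 0 of the 20 clock genes tested passed in brain by edgeR. Arntl, Npas2, Clock and Rora fell, and Dbp, Tef, Hlf, Per2, Per3, Ciart, Nr1d2 and Bhlhe41 rose. Per1, Cry2 and Nfil3 fell, against the direction of the other repressors and outputs. Of the 10 activator and loop genes tested, 2 were called higher and 4 lower, and of the 10 repressor and output genes 6 were called higher and 3 lower. The median difference was -0.42 in the first list and 1.74 in the second, beside 0.044 over all genes.

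Arntl, the core activator, was at 54.9, 60.1 and 63.7 CPM in the skull controls and 10.3, 9.51 and 11 CPM at 24 h. In brain the libraries were at 46.8, 52.1 and 55.6 CPM in the controls and 43.2, 42.7 and 37.5 CPM at 24 h. The skull groups lay far apart, and the brain groups lay next to each other without overlap. The log2 fold change was -2.54 ± 0.11 (SE, 3 libraries a group) in skull and -0.32 ± 0.10 in brain, a difference of -2.22 ± 0.15 (adjusted p = 2.95e-06). Npas2, the CLOCK paralogue, followed in skull from 66.7, 67.5 and 93 to 15.5, 21.9 and 18.6 CPM, against 54.6, 50.9 and 54.8 CPM in the brain controls and 51.4, 41.2 and 41.3 CPM in brain at 24 h, where the groups overlapped. Its difference was -1.76 ± 0.21 (adjusted p = 0.000439). Rora and Clock differed by -1.36 ± 0.27 and -0.59 ± 0.15 (adjusted p = 0.0141 and 0.0349).

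Dbp, a D-box activator and one of the steepest clock outputs, was at 4.47, 3.15 and 2.76 CPM in the skull controls and 88.5, 64.5 and 69.5 CPM at 24 h. Brain held 26.1, 25.5 and 26.4 CPM in the controls and 24.5, 32.5 and 36.8 CPM at 24 h, so the brain groups overlapped while every 24 h skull library was above every other library of both tissues. The log2 fold change was 4.41 ± 0.20 in skull and 0.27 ± 0.17 in brain, and the difference was 4.15 ± 0.26 (adjusted p = 2.38e-06). With the strand setting unknown, 539 exon bases that Dbp shares with Sphk2 on the opposite strand could hold reads of either gene. Tef, a relative of Dbp, moved from 47.9, 54.3 and 48.8 to 228, 172 and 155 CPM in skull and stayed above both in brain at 377, 344 and 376 CPM in the controls and 309, 352 and 356 CPM at 24 h. Its difference was 1.98 ± 0.17 (adjusted p = 3.28e-05), and that of Hlf, the last of these relatives, was 1.82 ± 0.26 (adjusted p = 0.00229).

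The period genes split. Per3 was at 16, 19 and 12 CPM in the skull controls and 104, 91.7 and 69.3 CPM at 24 h, with 57.7, 66.8 and 61.3 CPM in the brain controls and 67.6, 68.9 and 69.9 CPM in brain at 24 h. Per2 went from 12.8, 14.1 and 18.3 to 45.6, 39.5 and 40.1 CPM in skull, with 35, 49.2 and 49.5 CPM in the brain controls and 37.8, 38.3 and 41.5 CPM in brain at 24 h. Both rose in skull, Per2 into the range of the brain libraries and Per3 to it or past it, with differences of 2.34 ± 0.22 and 1.65 ± 0.21 (adjusted p = 7.82e-05 and 0.000742). Per1 instead fell from 617, 618 and 717 to 144, 173 and 224 CPM in skull, and its brain libraries were also lower at 24 h (87.5, 74.8 and 86.5 CPM) than in the controls (120, 113 and 138 CPM). The brain estimate of Per1 did not pass (adjusted p = 0.0839), and the difference was -1.27 ± 0.20 (adjusted p = 0.00265).

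Nfil3, a repressor at D-boxes, went from 79.7, 86.7 and 105 to 18, 17.9 and 24.5 CPM in skull, with 13.8, 7.47 and 11.9 CPM in the brain controls and 11.3, 7.75 and 5.86 CPM in brain at 24 h. The difference was -1.74 ± 0.35 (adjusted p = 0.0152). Ciart, which represses the activators, rose by 1.54 ± 0.20 in skull and was -0.42 in brain, a difference of 1.97 ± 0.27 (adjusted p = 0.00129). Nr1d2, which encodes REV-ERB beta, differed by 0.91 ± 0.16 (adjusted p = 0.00464) and Bhlhe41, another repressor, by 1.60 ± 0.27 (adjusted p = 0.00402). Cry2 differed by -0.79 ± 0.18 (adjusted p = 0.0233). Its paralogue Cry1 had a difference of 0.01 ± 0.22 and Nr1d1, which encodes REV-ERB alpha, one of -0.04 ± 0.19, and neither passed. The calls on Cry2 and Clock were lost without any one of 5 and 9 libraries, with adjusted p up to 0.0617 and 0.0827, while the other 13 clock calls held whichever library was left out. All 15 had the same direction in the other settings tried. With a replicate block of number within condition the calls on Nfil3 and Clock were lost (adjusted p = 0.0618 and 0.0879).

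**Figure D2:**
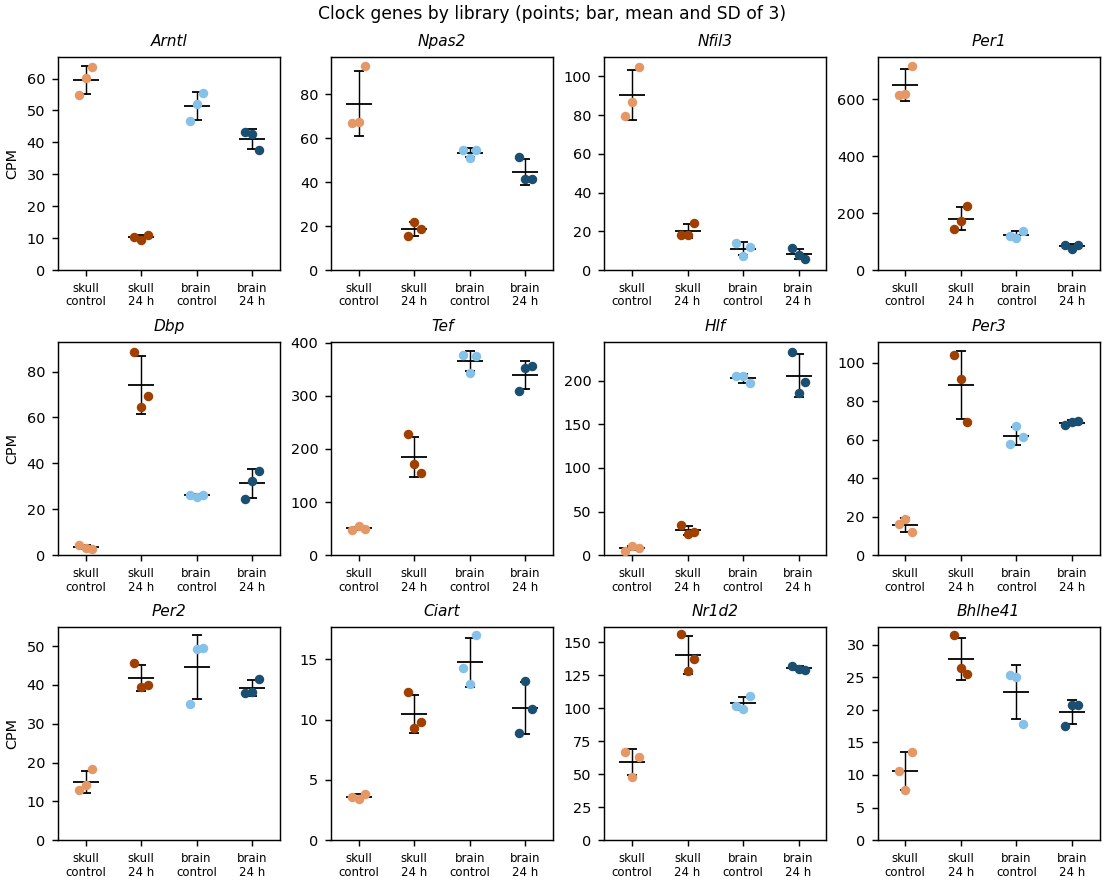
CPM of 12 clock genes in each of the 12 libraries (points), with the mean and SD of the 3 libraries of each group (bars), on linear axes from 0. The skull groups lie further apart than the brain groups in each panel.

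Of the genes of the cholesterol pathway, 16 of 28 rose in skull and 0 passed in brain by edgeR. Of 28 genes of cholesterol and fatty acid synthesis, 13 had a higher difference and 0 a lower one, a share of 46.4% beside 5.33%. At an unadjusted p under 0.05 the list held 22 higher and 0 lower, DESeq2 called 15 higher and 0 lower, and limma-voom the same numbers. The median difference was 0.59, made of 0.44 in skull and -0.09 in brain. The called genes described here run along the pathway, from an early step (Hmgcs1) through the isoprenoid steps (Idi1, Fdps), squalene formation and closure (Fdft1, Sqle, Lss) to the late sterol steps (Cyp51, Msmo1), with the regulator Srebf2, the sterol carrier Stard4 and the fatty acid synthase Fasn.

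Cyp51, the lanosterol demethylase, was at 19.7, 21.4 and 18.8 CPM in the skull controls and 50, 36.3 and 40.5 CPM at 24 h, with 65.6, 68.9 and 68.2 CPM in the brain controls and 65.4, 56.8 and 59.5 CPM in brain at 24 h. Its difference was 1.24 ± 0.16 (adjusted p = 0.000761). Msmo1, which removes the next methyl groups, went from 13.6, 15.1 and 12 to 30.6, 26.5 and 32.7 CPM in skull and stood at 67.4, 57.1 and 65.3 CPM in the brain controls and 68.1, 56 and 61.2 CPM in brain at 24 h, a difference of 1.17 ± 0.17 (adjusted p = 0.00162). The skull groups were separate in both genes. The brain groups overlapped for Msmo1 and lay next to each other for Cyp51. Sqle, the squalene epoxidase, differed by 1.22 ± 0.19 (adjusted p = 0.00291) and Lss, the next enzyme, by 1.02 ± 0.17 (adjusted p = 0.00467).

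Hmgcs1, an enzyme near the start of the pathway, rose from 35.7, 31.2 and 39.4 to 71.6, 62 and 71.1 CPM in skull. Brain held 179, 165 and 185 CPM in the controls and 198, 150 and 154 CPM at 24 h. The difference was 1.02 ± 0.16 (adjusted p = 0.00307). Of the 13 called genes 7 had a promoter window, and Hmgcs1 was the only gene of these with the sterol regulatory element TCACNCCAC. That element is present in 1.24% of all windows, a share of windows and not of genes. The window is shown with that element, of the kind SREBP2 binds, in capitals.
Hmgcs1 (chr13:119690101-119690400 on the plus strand): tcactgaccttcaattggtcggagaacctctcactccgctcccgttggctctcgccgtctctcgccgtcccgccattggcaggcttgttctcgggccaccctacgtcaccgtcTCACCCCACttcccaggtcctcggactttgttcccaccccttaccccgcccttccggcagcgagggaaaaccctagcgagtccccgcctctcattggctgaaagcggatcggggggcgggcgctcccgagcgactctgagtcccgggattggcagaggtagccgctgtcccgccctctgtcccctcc
The element begins 137 bases before the start site.

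The differences of Idi1, Fdps and Fdft1 were 1.42, 1.23 and 1.12, and those of Stard4, Fasn and Srebf2 0.74, 0.58 and 0.54. Srebf2, which encodes SREBP2 itself, rose in skull by 0.31 ± 0.08 (adjusted p = 0.0165). Insig1, a feedback regulator of the pathway, had a difference of -0.26 ± 0.17 that did not pass (adjusted p = 0.427). The call on Idi1 was lost without skull 24 h 1 (adjusted p = 0.0552). Those on Fasn and Stard4 were each lost without any one of 8 libraries (adjusted p up to 0.0822 and 0.0784). Fdft1 shares 774 exon bases with Ctsb on the opposite strand, and Fdps 1124 bases with Gm43738 on its own strand.

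**Figure D3:**
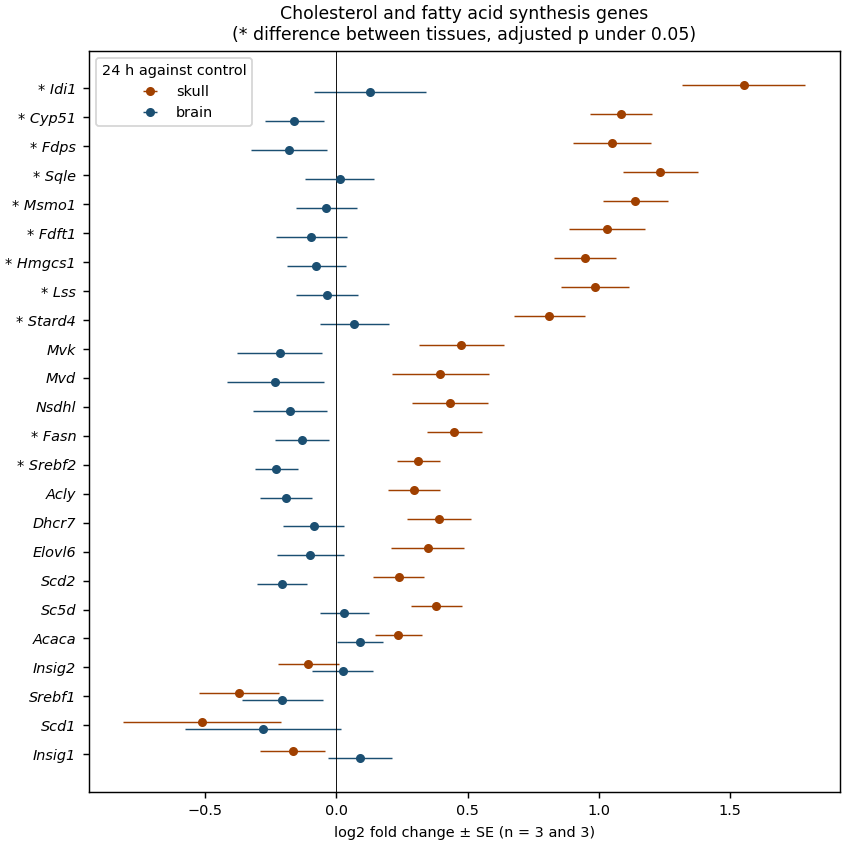
Log2 fold change with SE at 24 h in skull and brain for 24 genes of cholesterol and fatty acid synthesis, ordered by their difference, with asterisks on the 11 of them called. Skull points of the called genes lie right of 0 and brain points close to it.

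Of 25 genes that glucocorticoids switch on, 16 fell in skull at 24 h and 5 in brain. For the difference between the tissues, 0 were called with a higher and 5 with a lower difference (Klf9, Sesn1, Rasd1, Zbtb16 and Sult1a1). The share called was 20%, beside 5.33% over all genes. The list's median was -1.13 in skull and -0.62 in brain, so the estimates had the same sign in both tissues. At an unadjusted p under 0.05 the differences held 0 higher and 9 lower, and DESeq2 and limma-voom called 0 higher with 6 and 5 lower.

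Sesn1, a sestrin that restrains the growth kinase mTORC1, was at 149, 140 and 153 CPM in the skull controls and 50.6, 46.8 and 49.6 CPM at 24 h. In brain it stood at 68.2, 58 and 69.7 CPM in the controls and 56.6, 50.2 and 51.9 CPM at 24 h. The 24 h libraries were below all controls in each tissue, but the brain estimate did not pass (-0.30 ± 0.09, adjusted p = 0.138), and the difference was -1.28 ± 0.13 (adjusted p = 8.34e-05). Klf9, a zinc finger repressor, was at 395, 395 and 526 CPM and then 87.2, 87.8 and 134 CPM in skull and at 311, 292 and 330 CPM and then 253, 224 and 228 CPM in brain, a difference of -1.69 ± 0.22 (adjusted p = 0.00123). Rasd1, a small G protein known as dexamethasone-induced, was at 13.1, 16.1 and 16.7 CPM and then 1.74, 1.4 and 1.49 CPM in skull and at 18.3, 20 and 18.6 CPM and then 4.73, 14.7 and 9.45 CPM in brain. Its brain libraries at 24 h varied widely and the brain estimate did not pass (adjusted p = 0.132). The difference of Rasd1 was -2.32 ± 0.43 (adjusted p = 0.00833).

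Zbtb16, a transcription factor, differed by -1.14 ± 0.26 (adjusted p = 0.0214), a call lost without brain 24 h 1 or skull 24 h 3 (adjusted p up to 0.0549). Sult1a1, a sulfotransferase, lost its call without any one of 11 libraries (adjusted p up to 0.103). Fkbp5 and Tsc22d3, which are widely used readouts of the hormone's receptor, had differences of -0.10 ± 0.19 and -0.43 ± 0.15 that did not pass (adjusted p = 0.834 and 0.115).

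Of 12 FoxO and insulin receptor substrate genes, 4 were called with a lower difference and 0 with a higher one by edgeR. The share called was 33.3%, beside 5.33% over all genes. In skull 10 fell and 1 rose, and in brain 3 fell. At an unadjusted p under 0.05 the differences held 2 higher and 4 lower, DESeq2 called 2 higher and 4 lower, and limma-voom 1 higher and 4 lower. Foxo3 itself went from 194, 199 and 221 to 95.2, 116 and 109 CPM in skull while brain held 94.4, 93.2 and 99.3 CPM in the controls and 96.8, 101 and 102 CPM at 24 h. The skull groups were separate, with log2 fold changes of -0.94 ± 0.09 in skull and 0.06 ± 0.09 in brain, and the difference was -1.0 ± 0.12 (adjusted p = 0.000479). Irs2, an adaptor of the insulin receptor, fell in both tissues, with log2 fold changes of -1.46 ± 0.13 in skull and -0.66 ± 0.13 in brain (adjusted p = 9.19e-06 and 0.0308), and the difference was -0.80 ± 0.18 (adjusted p = 0.02). Without brain 24 h 3 or skull 24 h 1 the Irs2 difference no longer passed (adjusted p up to 0.0552). Klf11, a repressor of growth genes, and Ccng2, an unusual cyclin linked to cell cycle arrest, differed by -1.29 ± 0.21 and -0.72 ± 0.15 (adjusted p = 0.00335 and 0.0128).

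Chka, the choline kinase that starts phosphatidylcholine synthesis, was among the 5 lower differences with the smallest p. Its libraries were at 114, 97.1 and 125 CPM in the skull controls and 28.5, 26.9 and 31.3 CPM at 24 h, against 97.5, 104 and 102 CPM in the brain controls and 91.5, 98.4 and 97.3 CPM in brain at 24 h. The skull groups lay far apart and the brain groups overlapped. The difference was -1.87 ± 0.14 (adjusted p = 5.02e-06).

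In 8 genes the tissues moved in opposite directions, each past the test. Polr3e, Inf2, Eng, Ndufa12 and Mme rose in skull and fell in brain, and Clk1, Zfp869 and the noncoding transcript A330023F24Rik fell in skull and rose in brain. The 8 were singled out after their values were seen. Inf2, Mme, Zfp869 and A330023F24Rik stand outside the naming rule, and the other 4 are named by it.

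Polr3e, a subunit of RNA polymerase III, which makes transfer RNA, was at 28.8, 30.1 and 29.1 CPM in the skull controls and 40.4, 38.1 and 38.9 CPM at 24 h. In brain it was at 74.7, 71.5 and 77.9 CPM in the controls and 36.5, 38.2 and 41.2 CPM at 24 h. Brain therefore started above skull and ended at the skull's 24 h level, with no overlap between groups in either tissue. The log2 fold change was 0.42 ± 0.09 in skull and -0.95 ± 0.08 in brain, and the difference 1.37 ± 0.12 (adjusted p = 3.28e-05). Inf2, a formin that builds actin filaments, was at 130, 145 and 165 CPM in the controls and 206, 210 and 196 CPM at 24 h in skull and at 229, 227 and 226 CPM in the controls and 128, 134 and 123 CPM at 24 h in brain, a difference of 1.30 ± 0.12 (adjusted p = 6.72e-05).

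Eng, the endothelial coreceptor endoglin, went from 136, 148 and 153 to 190, 176 and 195 CPM in skull and from 25.5, 28.1 and 28 to 17.6, 16.9 and 18.6 CPM in brain, a difference of 0.98 ± 0.12 (adjusted p = 0.000439). It was the only gene called among 24 endothelial and blood-brain barrier genes, a share of 4.17% beside 5.33% over all genes. Ndufa12, a subunit of respiratory complex I, and Mme, the peptidase neprilysin, differed by 1.37 ± 0.22 and 0.95 ± 0.15 (adjusted p = 0.00307 and 0.0032). With all 27 libraries in one fit the call on Mme was lost (adjusted p = 0.166).

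Clk1 and Clk4 encode kinases that phosphorylate SR splicing factors. Clk1 was at 288, 248 and 280 CPM in the skull controls and 186, 172 and 145 CPM at 24 h, and at 89.8, 79.2 and 80.1 CPM in the brain controls and 156, 136 and 136 CPM in brain at 24 h. Its groups did not overlap in either tissue, and the difference was -1.48 ± 0.15 (adjusted p = 9.37e-05). Clk4 rose in brain from 56.3, 62.2 and 50.8 to 99.5, 93.2 and 87.9 CPM (0.73 ± 0.09, adjusted p = 0.00213), while in skull it was at 80.7, 77.5 and 82.5 CPM in the controls and 73, 75.4 and 66.5 CPM at 24 h (-0.16 ± 0.09, adjusted p = 0.244). The Clk4 difference was -0.89 ± 0.13 (adjusted p = 0.00164). Of the 11 cold-inducible and splicing kinase genes these came with Cirbp, a cold-inducible RNA-binding protein, and Sf3b1, a spliceosome subunit, both lower in skull, with differences of -0.78 ± 0.17 and -0.53 ± 0.11 (adjusted p = 0.0178 and 0.0125). The Cirbp call was lost without skull 24 h 3 (adjusted p = 0.0503). Srsf5, one of the SR splicing factors, had a difference of -0.59 ± 0.11 (adjusted p = 0.0063). It was 1 of 2 called among 31 SR protein and hnRNP genes, a share of 6.45% beside 5.33% over all genes.

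**Figure D4:**
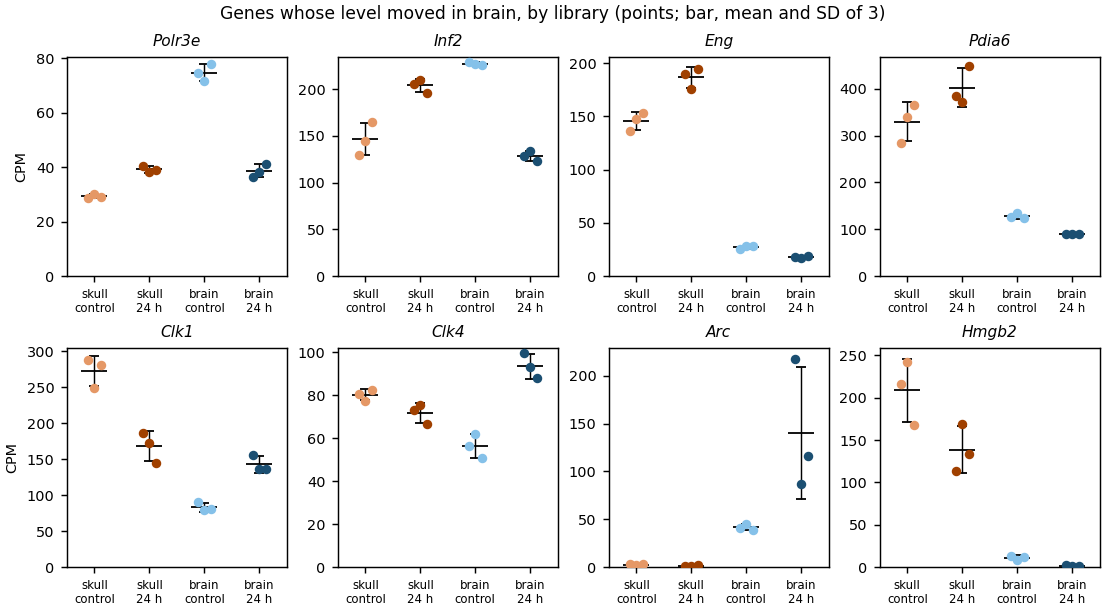
CPM in each library (points) with the mean and SD of 3 (bars) for 8 genes that passed the test in brain at 24 h, on linear axes from 0. Polr3e, Inf2, Eng and Pdia6 are lower and Clk1, Clk4 and Arc higher in brain at 24 h than in the brain controls, and Hmgb2 is lower in both tissues.

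Several of the largest positive differences belonged to secreted and surface proteins that rose in skull. Prg4 encodes lubricin, the lubricant glycoprotein of joints. Its libraries were at 3.18, 11 and 4.46 CPM in the skull controls, 1190, 839 and 1500 CPM at 24 h, 5.22, 3.45 and 4.66 CPM in the brain controls and 7.42, 5.96 and 7.92 CPM in brain at 24 h. Every 24 h skull library was thus far above the highest of the other 9. The log2 fold change was 7.54 ± 0.46 in skull and 0.65 ± 0.43 in brain, and the difference was 6.89 ± 0.60 (adjusted p = 0.000439). Prg4 was 1 of 3 genes called among 19 cartilage and joint-like repair genes, a share of 15.8% beside 5.33% over all genes. The others, Cilp2 and Prelp, were lower in skull (differences of -1.40 ± 0.23 and -1.13 ± 0.16, adjusted p = 0.00331 and 0.00129). Prg4 shares 204 exon bases with Tpr on the opposite strand.

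Apcdd1, a membrane inhibitor of Wnt signalling, went from 18.1, 16.8 and 19.8 to 84.9, 77.3 and 77 CPM in skull, against 30, 26.9 and 26.3 CPM in the brain controls and 20.8, 26.8 and 24.3 CPM in brain at 24 h. The skull groups were separate and the brain groups overlapped, and its difference of 2.35 ± 0.16 had an adjusted p of 2.95e-06. Wnt7b, a Wnt ligand, went from 0.795, 1.63 and 2.05 to 9.04, 8.5 and 12.1 CPM in skull and was at 30.9, 31.1 and 24.6 CPM in the brain controls and 29.6, 25.8 and 33.9 CPM in brain at 24 h, a difference of 2.69 ± 0.33 (adjusted p = 0.000479).

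Serpina3n, an acute-phase inhibitor of serine proteases, was at 15.5, 17.5 and 35.3 CPM in the skull controls and 226, 115 and 289 CPM at 24 h. In brain it was at 15.1, 19.1 and 13.7 CPM in the controls and 12.4, 16 and 13.7 CPM at 24 h. The skull libraries at 24 h varied widely but all exceeded the controls. The brain groups overlapped, and the difference was 3.40 ± 0.55 (adjusted p = 0.0101). Apln, the vascular peptide apelin, went from 1.22, 2.04 and 3.68 to 14, 13.3 and 17.9 CPM in skull against 21.8, 28.1 and 24.7 CPM in the brain controls and 22.1, 19.5 and 20.6 CPM in brain at 24 h, a difference of 2.98 ± 0.35 (adjusted p = 0.000424). Spint1, an inhibitor of surface serine proteases, and Steap1 were below 5 CPM throughout and differed by 2.68 ± 0.58 and 2.55 ± 0.54 (adjusted p = 0.0165 and 0.0147). With all 27 libraries in one fit the Steap1 call was lost (adjusted p = 0.321). Slc10a4, an orphan member of the bile acid transporter family, passed in neither tissue alone and lost its difference of 2.51 ± 0.64 without any one of 9 libraries (adjusted p up to 0.0911).

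Injury-related genes that the brain hardly expressed were also called and stand outside the naming rule, which asks for 1 CPM in both tissues. Arg1, the arginase of repair macrophages, had 20 counts over the 3 skull controls and 1548 at 24 h, with 60 and 6 in brain. Saa3, an acute-phase protein, had 22 and 2472 counts in skull, with 10 and 8 in brain, and Mmp3, the matrix protease stromelysin, 211 and 2355 in skull, with 15 and 2 in brain. The brain counts of these genes are too low to place their brain change, and the calls on Saa3 and Mmp3 were lost without brain control 1 (adjusted p = 0.172 and 0.279). Limma-voom did not call Arg1 (adjusted p = 0.0776) or Saa3 (adjusted p = 0.224). Cxcl5, a neutrophil-attracting chemokine, rose in skull from 1.65, 2.04 and 1.7 to 11.1, 10.1 and 15 CPM. It was the only gene called among 24 chemokines, a share of 4.17% beside 5.33% over all genes.

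For cell division genes the median estimate was below 0 in brain and above 0 in skull. Of 45 DNA replication and mitosis genes, 9 were called (20%, beside 5.33% over all genes), all with a higher difference. Of the 45, 44 had a difference above 0. The list's median was 0.28 in skull and -0.79 in brain. DESeq2 called 18 higher and 0 lower and limma-voom 1 higher and 0 lower, while an unadjusted p under 0.05 was reached by 30 higher and 0 lower. The mean log2 CPM over 41 members was 2.912 in brain control 1. Brain controls 2 and 3 had 2.219 and 2.222, and the 24 h brain libraries 1.93 to 1.999. Without brain control 1 the list's median difference was 0.665 in place of 1.13, and 5 genes were called. Tk1, Tpx2, Prc1 and Ccne2 then lost their calls (adjusted p = 0.0586, 0.0908, 0.0929 and 0.0889), and the difference of Ccnb1, the mitotic cyclin B1, was 2.51 in place of 3.61. The count was also 5 without brain 24 h 1, skull control 1, skull control 3, skull 24 h 1 or skull 24 h 2, 2 without brain 24 h 2 and 3 without brain 24 h 3. It was 14 without brain control 2 and 12 without brain control 3. The Ccnb1 call was lost without any one of the 3 brain 24 h libraries (adjusted p up to 0.0669). It was also lost in limma-voom (adjusted p = 0.0605) and with no filter on low counts (adjusted p = 0.0615).

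Hmgb2, a chromatin protein of dividing cells, fell in both tissues. It was at 216, 242 and 168 CPM in the skull controls and 114, 169 and 133 CPM at 24 h, and at 13.5, 7.85 and 11.5 CPM in the brain controls and 1.97, 1.47 and 1.73 CPM at 24 h. The skull groups overlapped and the brain groups did not. The log2 fold change was -0.59 ± 0.18 in skull and -2.68 ± 0.28 in brain (adjusted p = 0.046 and 0.00166), and the difference was 2.09 ± 0.34 (adjusted p = 0.00484). Limma-voom gave an adjusted p of 0.0625 for Hmgb2.

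Cdk1, the kinase that starts mitosis, was at 47.4, 55 and 39.6 CPM in the skull controls and 51.5, 64.7 and 41.8 CPM at 24 h, which overlapped. In brain it was at 4.9, 0.942 and 1.49 CPM in the controls and 0.263, 0.0641 and 0.0666 CPM at 24 h. Brain control 1 held the highest brain value, and without it the brain mean is below 1 CPM. Cdk1 therefore met the naming rule only through that library. The brain estimate of -4.28 ± 0.90 did not pass (adjusted p = 0.0743), and the difference was 4.43 ± 1.0 (adjusted p = 0.0312), or 3.30 (adjusted p = 0.00958) without brain control 1. Leaving out any one of 8 other libraries ended the call (adjusted p up to 0.0987), and limma-voom gave 0.0507. Spc24, a kinetochore subunit, and Ect2, which sets up the cleavage furrow, both rose in skull (0.87 ± 0.23 and 0.75 ± 0.24), and their differences of 2.37 ± 0.43 and 2.32 ± 0.45 (adjusted p = 0.00669 and 0.0101) passed in all 12 refits with a library removed. In limma-voom Ect2 had an adjusted p of 0.0555.

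Among protein folding genes of the endoplasmic reticulum, 4 fell in brain, and in skull 2 rose and 6 fell. Of the 26 tested, 5 were called higher (Pdia6, Pdia4, P4hb, Pdia3 and Xbp1) and 1 lower (Dnajb9). The share called was 23.1%, beside 5.33% over all genes, and the medians were -0.08 in skull and -0.30 in brain. Pdia6, a protein disulfide isomerase, was at 284, 341 and 366 CPM in the skull controls and 384, 373 and 450 CPM at 24 h. In brain it went from 126, 134 and 124 to 89.3, 90.7 and 89 CPM. The brain groups did not overlap and the fall passed (-0.51 ± 0.10, adjusted p = 0.0359), whereas the skull estimate did not (0.29 ± 0.10, adjusted p = 0.0614). The difference was 0.80 ± 0.14 (adjusted p = 0.00574).

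Pdia4, from the same enzyme family, and Dnajb9, a cochaperone, differed by 0.75 ± 0.14 and -0.78 ± 0.17 (adjusted p = 0.00864 and 0.0149). P4hb, which also serves collagen prolyl hydroxylase, differed by 0.82 ± 0.19 (adjusted p = 0.0246). The calls on P4hb, Pdia3 and Xbp1 were lost without any one of 5, 7 and 11 libraries (adjusted p up to 0.0619, 0.0769 and 0.115), and that on Xbp1 also with RLE scaling (adjusted p = 0.0878) and with TMM within each tissue (adjusted p = 0.0728). Of 73 nuclear genes of oxidative phosphorylation, 3 were called higher and 1 lower, a share of 5.48% beside 5.33% over all genes. At an unadjusted p under 0.05 this list held 22 higher and 1 lower, and 68 of the 73 estimates were above 0. Its median difference was 0.26, beside 0.044 over all genes, and was made of -0.03 in skull and -0.32 in brain. The list's mean log2 CPM was 5.696, 5.6 and 5.4 in the brain controls and 5.079, 5.289 and 5.388 in brain at 24 h. The shift was not particular to this list: of 75 cytosolic ribosomal protein genes, 69 estimates were above 0, with a brain median of -0.46. Of those 75, 2 were called (2.67%). Ndufa12 kept its call throughout the left-out libraries, while Ndufa5, Uqcrq and Atp5l lost theirs in 10, 9 and 10 of the 12 refits (adjusted p up to 0.118, 0.0889 and 0.11).

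Targets of p53, the damage-responsive transcription factor, moved in both directions. Of 21 genes, Zmat3, Aen and Phlda3 were called higher and Trp53inp1 and Plk2 lower, a share of 23.8% beside 5.33% over all genes. In skull 5 passed higher and 7 lower, and in brain 0 higher and 1 lower, with medians of -0.35 and -0.32. Zmat3, an RNA-binding target, went from 21.1, 27 and 26.2 to 54.5, 45.4 and 49.4 CPM in skull, with 146, 154 and 155 CPM in the brain controls and 156, 139 and 145 CPM in brain at 24 h, a difference of 1.05 ± 0.14 (adjusted p = 0.00105). Aen, an exonuclease of apoptosis, and Phlda3, an inhibitor of AKT, rose in skull as well and differed by 1.05 ± 0.21 and 1.38 ± 0.26 (adjusted p = 0.0101 and 0.00806). Trp53inp1, which takes part in autophagy and p53 activation, fell in both tissues, with log2 fold changes of -1.14 ± 0.08 in skull and -0.54 ± 0.09 in brain, and the difference was -0.60 ± 0.12 (adjusted p = 0.0125). Mdm2, the inhibitor of p53 and its direct target, had a difference of 0.01 ± 0.16, which did not pass. The Plk2 call was lost without any one of 9 libraries (adjusted p up to 0.109).

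Among 13 feedback genes of the ERK pathway, Dusp7, Etv4 and Spred3 were called higher and Spry4 and Spry2 lower. The share called was 38.5%, beside 5.33% over all genes. In skull 3 passed higher and 3 lower, and in brain 0 passed. Dusp7, a phosphatase that switches ERK off, was at 31, 34.4 and 34.9 CPM in the skull controls and 76.4, 71.7 and 71.1 CPM at 24 h, against 71.5, 62.3 and 69.2 CPM in the brain controls and 69, 58 and 66 CPM in brain at 24 h, where the groups overlapped. The difference was 1.20 ± 0.13 (adjusted p = 0.000194). Etv4, a transcription factor downstream of ERK, and Spred3, an inhibitor of the pathway, differed by 2.05 ± 0.42 and 0.70 ± 0.14 (adjusted p = 0.012 and 0.0119). Spry4, an inhibitor from the Sprouty family, differed by -1.74 ± 0.32 (adjusted p = 0.00838), and its relative Spry2 lost its call without any one of 9 libraries (adjusted p up to 0.0994).

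Among genes that neurons switch on with activity, more had a lower than a higher difference. Of 23 such effector genes, 2 were called higher (Inhba and Homer1) and 6 lower (Per1, Rgs2, Arc, Scg2, Bdnf and Gpr3). The share called was 34.8%, beside 5.33% over all genes. In skull 1 passed higher and 8 lower, and in brain 1 higher and 3 lower, with medians of -0.78 and -0.40. Only 12 of the 23 had a mean of at least 1 CPM in both tissues, and Per1 is also in a clock list. Inhba, a subunit of activin, rose in skull from 30.5, 33.6 and 35.1 to 94.3, 93.2 and 112 CPM and stood at 26.5, 17.1 and 16.2 CPM in the brain controls and 18.1, 11.9 and 10.1 CPM in brain at 24 h, a difference of 2.18 ± 0.30 (adjusted p = 0.00182). Rgs2, which dampens G protein signalling, went from 111, 79.2 and 93.8 to 36.7, 32.7 and 34.8 CPM in skull, a difference of -1.50 ± 0.26 (adjusted p = 0.0059). The calls on Inhba, Per1 and Rgs2 held whichever library was removed. Those on Bdnf, Gpr3 and Homer1 were lost without any one of 8, 8 and 7 libraries (adjusted p up to 0.0896, 0.0696 and 0.0966), and that on Scg2 without skull 24 h 1 (adjusted p = 0.0582) and in limma-voom (adjusted p = 0.133). With all 27 libraries in one fit Bdnf had an adjusted p of 0.228, and with RLE scaling Homer1 had 0.0606.

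Arc, a synaptic protein of recently active neurons, rose in brain from 41.1, 45.1 and 38.6 to 218, 86.7 and 116 CPM, with brain 24 h 1 highest (1.75 ± 0.30, adjusted p = 0.0353). In skull it was low, at 2.94, 1.87 and 3.33 CPM in the controls and 0.811, 1.08 and 1.74 CPM at 24 h, and the groups did not overlap. The difference was -2.91 ± 0.60 (adjusted p = 0.0216), and it was lost without any one of 5 libraries (adjusted p up to 0.0737) and in limma-voom (adjusted p = 0.272). Nr4a1, an immediate early nuclear receptor, differed by -2.49 ± 0.44 (adjusted p = 0.0131), with 357, 276 and 381 CPM in the skull controls, 79.4, 49.4 and 105 CPM in skull at 24 h, and 74, 73.2 and 95.4 CPM in the brain controls and 150, 72.8 and 92.1 CPM in brain at 24 h. Of 27 immediate early transcription factors 0 were called higher and 3 lower, with 1 higher and 10 lower at an unadjusted p under 0.05. The share called was 11.1%, beside 5.33% over all genes. DESeq2 called 0 higher and 8 lower, and limma-voom 0 higher and 2 lower. Atcayos, an antisense transcript at the Atcay locus with 432 shared exon bases, passed in neither tissue alone and differed by -3.92 ± 0.82 (adjusted p = 0.0166) at levels of 8 CPM or less.

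Several of the genes with the largest negative differences had low CPM in skull and higher CPM in brain. They were chosen by the size of the difference and are no list of neuronal genes. Lsamp, an adhesion molecule of neurons, was at 4.04, 4.38 and 4.67 CPM in the skull controls and 0.174, 1.01 and 0.684 CPM at 24 h, against 374, 377 and 390 CPM in the brain controls and 413, 390 and 402 CPM in brain at 24 h. Sphkap, an anchor of protein kinase A, was at 13.5, 10.7 and 16.6 CPM in the controls and 3.77, 3.43 and 2.67 CPM at 24 h in skull and at 196, 210 and 223 CPM in the brain controls and 251, 246 and 249 CPM in brain at 24 h. The skull groups of both genes were separate. Their differences were -2.89 ± 0.31 and -2.29 ± 0.20 (adjusted p = 0.000181 and 3.28e-05).

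Kcnd3, a potassium channel subunit, Spock3, an extracellular proteoglycan, and Ankrd63 were likewise below 8 CPM in skull and above 25 CPM in brain, with differences of -2.43 ± 0.40, -2.44 ± 0.45 and -2.85 ± 0.40 (adjusted p = 0.00549, 0.00843 and 0.0015). Spock3 was not called by limma-voom (adjusted p = 0.0968) or in the fit of all 27 libraries (adjusted p = 0.135). Tmem108, from the same level range in skull, lost its call without any one of 11 libraries (adjusted p up to 0.116), and Myh7b, a myosin heavy chain, differed by -2.33 ± 0.46 (adjusted p = 0.00996). Cecr2, a bromodomain protein of a chromatin remodeller, was unlike these in being higher in skull: 46.1, 41.7 and 36.6 CPM in the controls and 7.53, 15.1 and 6.47 CPM at 24 h, with 5.66, 7.03 and 5.96 CPM in the brain controls and 7.69, 12.3 and 10.3 CPM in brain at 24 h. Its difference was -2.80 ± 0.39 (adjusted p = 0.00165).

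Glial and neuronal markers in skull were read beside these transcripts. Aqp4, the astrocyte water channel, was at 2.81, 1.75 and 0.92 CPM in the skull controls and 0.521, 0.571 and 0.187 CPM at 24 h, and Mog, a myelin protein, at 0.283, 0.583 and 0.617 CPM in the controls and at 0.116, 0.313 and 0 at 24 h. The myelin list summed to between 560 and 637 CPM in the skull controls and between 538 and 563 at 24 h, with a median member of 1.72 to 2.50 and then 1.10 to 1.44 CPM. The neuron list summed to between 163 and 194 CPM in the controls and between 218 and 257 at 24 h, and included Tubb3, a neuronal tubulin, which rose from 5.45, 4.55 and 7.29 to 24.7, 19.2 and 20.8 CPM (difference 2.20 ± 0.22, adjusted p = 9.37e-05). Rbfox3 was at 0.802 to 1.51 CPM in the skull controls and 0.984 to 1.79 at 24 h. Snap25 was at 4.86, 3.15 and 4.94 CPM and then 4.4, 3.7 and 1.42. Syt1 was at 1.24, 3.9 and 3.64 CPM and then 2.61, 2.32 and 1.85, and Map2 at 3.9, 6.17 and 4.38 and then 3.94, 4.01 and 2.65. In skull the median neuron list member was at 2.21 to 3.09 CPM and then 1.63 to 2.55. That of the astrocyte list was at 7.31 to 12.1 CPM and then 4.81 to 6.61. Of the 16 astrocyte, 22 myelin and 20 neuron markers, 0 higher and 3 lower, 0 higher and 2 lower, and 1 higher and 2 lower were called. At an unadjusted p under 0.05 these lists held 1, 1 and 3 higher and 6, 5 and 8 lower. The part of brain-derived RNA in the skull samples in these differences was not tested.

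Of 24 prostaglandin and leukotriene genes, 2 were called higher and 2 lower, a share of 16.7% beside 5.33% over all genes. Cysltr2, a leukotriene receptor, fell in brain from 1.3, 1.13 and 1.24 to 0.328, 0.192 and 0.2 CPM (-2.32 ± 0.35, adjusted p = 0.00999) and did not pass in skull (-0.33 ± 0.23, adjusted p = 0.378). Its difference was 2.00 ± 0.43 (adjusted p = 0.0156), and with a mean under 1 CPM in brain it stands outside the naming rule. Pla2g4a, the phospholipase that releases arachidonic acid, rose in skull and differed by 1.09 ± 0.23 (adjusted p = 0.0156). Hpgd, which inactivates prostaglandins, and Ptger4, a prostaglandin E receptor, had lower differences of -0.67 ± 0.15 and -1.56 ± 0.40 (adjusted p = 0.0216 and 0.0375), which were lost without any one of 4 and 9 libraries (adjusted p up to 0.059 and 0.112).

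Of the 54 gene lists examined, 13 had no called member. They hold neutrophil, erythroid, mature B, T and NK cell, osteoclast, muscle, skin, choroid plexus, pineal and melanocyte genes, both MHC lists and the interferon-stimulated genes. Over their 235 entries edgeR called 0, 23 reached an unadjusted p under 0.05, DESeq2 called 8 and limma-voom 3. The 37 interferon-stimulated genes had a median difference of 0.95, made of -0.32 in skull and -1.29 in brain, with 35 of 37 estimates above 0. Their summed level varied between brain controls, at 395, 200 and 592 CPM, against 197 to 248 CPM in brain at 24 h, and between skull libraries from 1340 to 4690 CPM. The groups overlapped in both tissues.

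In the meninges, the membranes between the tissues compared here, the same genes were read from a fit of all 27 libraries, in which 9.42% of 21500 genes passed at 24 h. Dbp rose there by 2.45 and Arntl fell by 1.57 (adjusted p = 3.05e-05 and 9.24e-08). Apln rose by 2.61 (adjusted p = 6.11e-06), Wnt7b rose by 4.0 (adjusted p = 2.43e-05), and Chka, Sesn1 and Rasd1 had meningeal values of -1.19, -1.05 and -2.58 (adjusted p = 8.25e-07, 8.33e-09 and 5.23e-05). Lsamp and Sphkap, called between skull and brain, had meningeal estimates of 0.20 and 0.02 (adjusted p = 0.851 and 0.978). At 0.5 h, with the same controls as at 24 h, Prg4 had estimates of -0.16 in skull and -0.14 in brain, and Dbp of 1.03 and -0.11. Whether skull and meninges differed was not tested.

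**Figure D5:**
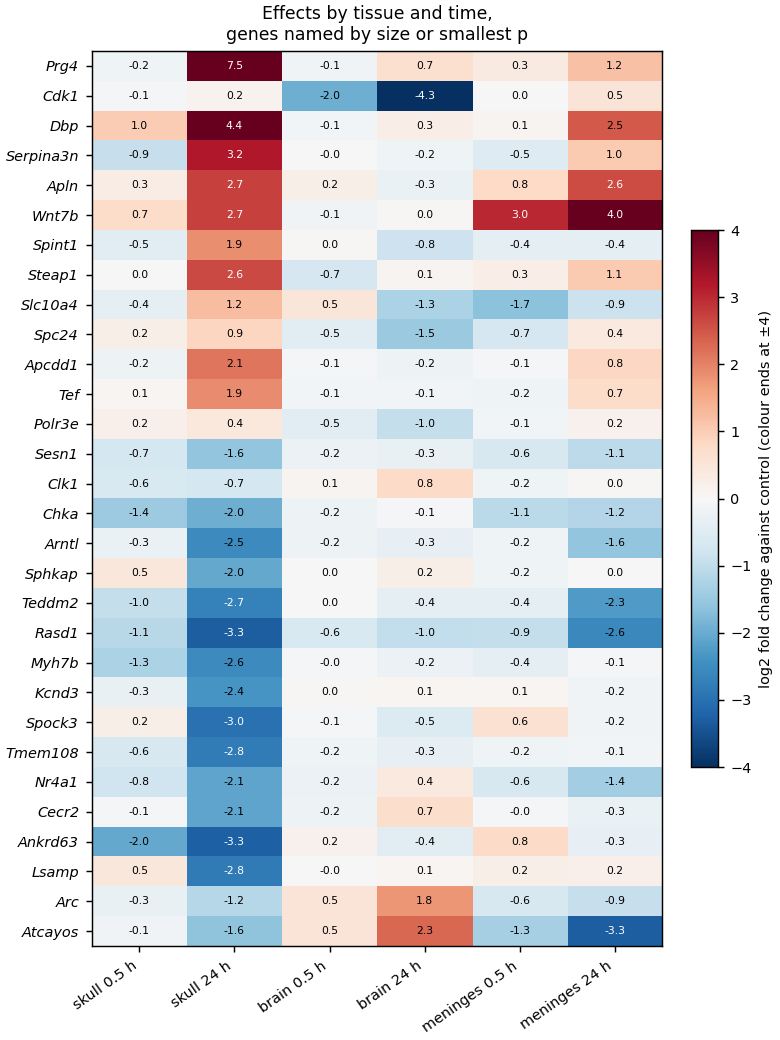
Log2 fold change against the same tissue's controls at 0.5 h and 24 h in skull, brain and meninges for 30 genes named by size or by smallest p, ordered by the skull minus brain difference. Colour runs from -4 (blue) to 4 (red), and each cell prints its value. The 24 h skull column carries the strongest colours, with Cdk1, Atcayos and Arc strongest in the brain column.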

How the data were processed

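The authors deposited 1 table of read counts per gene (37095 symbols, 27 libraries). Per the labels' protocols, TRIzol extraction was followed by poly(A) selection and Illumina sequencing. The submitters' processing notes name HISAT2 2.1.0 and the build mm10. Which tool counted the reads, on which annotation and with which strand option is not given in the sources used here.

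The deposited counts were fitted in 1 model of the 4 groups with edgeR 4.0.16 (R 4.3.3, glmQLFit with the robust option and glmQLFTest), TMM scaling and filterByExpr (minimum count 10, total 15). The contrast was the 24 h effect in skull minus that in brain. P-values were adjusted by Benjamini-Hochberg over all genes tested. The SE is the absolute log2 value divided by the square root of F. CPM use TMM-scaled totals for named genes and plain totals for marker lists, and are compared within a gene only. On simulated data, 49% of fold-2 and 94% of fold-4 differences were recovered among 19873 genes, with 8 false calls. These counts were drawn independently for each library from the kind of model edgeR fits, with the spread edgeR estimated here. The number of false calls therefore cannot show how many arise where real libraries depart from that model.

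Genes were named by rule among called genes with an established symbol and at least 1 CPM in both tissues: the 12 largest differences and the 5 smallest p in each direction, and up to 4 members of each list by smallest p. Other genes named were chosen after their values were seen. The comparison and the 54 gene lists were chosen with earlier results of these data known. Gene positions for exon overlaps come from GENCODE M21, which matched 33404 symbols (90.0%). Alternatives were other scalings, filters, DESeq2 1.42.0, limma 3.58.1 voom, all 27 libraries, each library left out and replicate blocks. Non-cranial irradiation was not analysed here, and some genes the rule or lists hold are not reported here.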

Additional observations from a re-analysis of the deposited data

Results flagged for a closer look

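For 30 genes, chosen by size or by smallest p, the test of the difference itself separated the 24 h effects of skull and brain. A positive log2 difference, higher in skull, was found for Prg4 (6.89), Cdk1 (4.43), Dbp (4.15), Serpina3n (3.40), Apln (2.98), Wnt7b (2.69), Spint1 (2.68), Steap1 (2.55), Slc10a4 (2.51), Spc24 (2.37), Apcdd1 (2.35), Tef (1.98) and Polr3e (1.37). A negative one was found for Atcayos (-3.92), Arc (-2.91), Lsamp (-2.89), Ankrd63 (-2.85), Cecr2 (-2.80), Nr4a1 (-2.49), Tmem108 (-2.48), Spock3 (-2.44), Kcnd3 (-2.43), Myh7b (-2.33), Rasd1 (-2.32), Teddm2 (-2.30), Sphkap (-2.29), Arntl (-2.22), Chka (-1.87), Clk1 (-1.48) and Sesn1 (-1.28). Teddm2, not described above, had an adjusted p of 0.00402 by edgeR. It shares 116 exon bases with Glul on the opposite strand, and with the strand setting unknown its value could hold reads of Glul, which fell in skull. Cdk1 reached a mean of 1 CPM in brain only with brain control 1 included. Groups of 3 libraries are too small for a test of outlying samples.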

How the results depend on the processing

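Direction was checked for 152 called genes: those named by rule, called list members and those that moved in opposite directions. Of these, 0 reversed under any alternative. Other genes, among them list members that were not called, were not checked. The number of called genes, 1060 (574 higher and 486 lower), rose to 1824 (896 higher and 928 lower) with DESeq2 and lay between 620 and 1033 with 1 library left out. Leave-one-out counts ran from 310 to 483 higher and from 310 to 552 lower, and these refits shared 55.5% to 76.4% of the main calls. The lowest counts came without skull 24 h 1 (620, with 310 higher and 310 lower). Without skull 24 h 3 there were 701 (373 higher), without brain control 1 there were 354 higher, without brain 24 h 2 there were 370 higher, and without brain control 2 there were 311 lower. The causes were not tested. With RLE scaling 978 were called, 435 higher and 543 lower, so the higher share was 44.5% in place of 54.2%. Of the 112 genes named by rule, 81 kept their call whichever library was left out, and 84 under the 9 other settings without a block. Limma-voom ended 15 calls, the fit of all 27 libraries 11 and no filter on low counts 10.

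Libraries with the same replicate number did not deviate together (r from -0.11 to 0.13 over 18 pairs). Only the 6 pairs of skull and brain from the same condition could share a mouse, and their r ran from -0.076 to 0.027. With 3 libraries a group and unlike tissues, r near 0 cannot tell whether they did. The main model did not take the numbers as pairs. With the replicate number as a block 760 genes were called (401 higher and 359 lower), and 69.2% of the main calls were kept. With a replicate block of number within condition 431 were called (224 higher and 207 lower), and 39.5% of the main calls were kept. This block ended the calls on Nfil3, Sf3b1, Ccng2, Srebf2, Dnajb9, Pla2g4a, Spint1, Steap1, Cysltr2 and Cxcl5. Those calls had held whichever library was left out. Cdk1, Ccnb1, Clock, Cirbp and P4hb were among the other genes that lost their calls with it.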

Other observations

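Among called genes outside the lists, several with small p are described here, chosen after their values were seen. Glul, glutamine synthetase, had log2 fold changes of -1.26 ± 0.09 in skull and -0.14 ± 0.09 in brain, a difference of -1.12 ± 0.12 (adjusted p = 0.000184 by edgeR). Mlxip, a glucose-responsive transcription factor, and Crebrf, a regulator of CREB3 proteins, differed by -0.99 ± 0.10 and -1.35 ± 0.14 (adjusted p = 0.00015 and 0.000125). Id2, an inhibitor of basic helix-loop-helix factors, differed by -1.15 ± 0.15 (adjusted p = 0.000936). Ntm and Negr1, adhesion molecules of the same family as Lsamp, differed by -2.24 ± 0.24 and -1.80 ± 0.24 (adjusted p = 0.000184 and 0.00139).

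Ccnd1, the cyclin that starts the cell cycle, rose in skull by 1.84 ± 0.15 and was -0.11 in brain, a difference of 1.95 ± 0.21 (adjusted p = 0.000208). Bok, a member of the BCL2 family, and Car12, a carbonic anhydrase, differed by 1.75 ± 0.21 and 2.08 ± 0.31 (adjusted p = 0.000439 and 0.00185). Nes, the intermediate filament nestin, had estimates of 1.03 ± 0.18 in skull and -0.74 ± 0.18 in brain and differed by 1.77 ± 0.25 (adjusted p = 0.00157).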
